A study of Mus musculus with 4 samples.

Results

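The 10 genes described here encode major histocompatibility complex (MHC) class I molecules and the transporter that supplies their peptides. They were taken by symbol from the 31053 features of the gene by cell matrices: H2-K1 and H2-D1, H2-Q4, H2-Q6 and H2-Q7, H2-T22, H2-T23, H2-M3, B2m and Tap1. All 10 symbols matched 1 row each. Transcripts of single mouse bone marrow cells had been counted by their 5′ ends in 4 libraries, each from 1 mouse, comprising 2 TLR9-/- and 2 wild type (WT) mice. The study compared these genotypes to examine hematopoiesis and inflammation in mice without Toll-like receptor 9, an endosomal sensor of unmethylated CpG DNA. The libraries were made from bone marrow mononuclear cells, whose preparation for sequencing the study did not describe. For other assays it flushed femurs and tibias and used a density gradient, in the osteoclast assay after an overnight culture that removed adherent cells. TLR9-/- mice carry a disrupted Tlr9 allele in every cell of a C57BL/6 animal, and both genotypes were kept untreated on normal chow but in separate cages, so that genotype and cage cannot be told apart. The study profiled them in 2 experiments, each with 1 mouse of either genotype, but the labels do not say which libraries belong to the same experiment. The age of these 4 mice was not given in the sources used here. The libraries are called TLR9-/- 1, TLR9-/- 2, WT 1 and WT 2 after their labels, and values of 4 libraries are given in this order.

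A class I molecule consists of a heavy chain, the light chain β2-microglobulin (B2m) and a short peptide. H2-K1 and H2-D1 encode the classical heavy chains, which present peptides from the inside of the cell to CD8+ T cells and engage inhibitory receptors of natural killer (NK) cells. The other heavy chains are nonclassical. H2-Q6 and H2-Q7 belong to the genes of the Qa-2 antigens, which are held in the membrane by a lipid anchor, and H2-Q4 is their neighbor. H2-T23 encodes Qa-1, the ligand of the CD94/NKG2A receptor, H2-T22 is recognized by a subset of γδ T cells without a peptide, and H2-M3 presents peptides with an N-formyl group. Peptides cut by the proteasome are pumped into the endoplasmic reticulum by the TAP transporter, of which Tap1 is a subunit. Interferons raise the transcription of most of these genes.

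Filtering left 39167 of 40545 cells, with 10781, 8918, 10573 and 8895 cells and 50204578, 63958243, 31210188 and 41384657 unique molecular identifiers (UMIs), each UMI standing for 1 captured transcript. Cells were clustered with the class I genes and 4 related gene lists kept out of the variable genes, and each of the 27 clusters was named after the class whose markers led it, so that a name such as T cells stands for T cell-like clusters. The comparison of genotypes used 13 classes with at least 20 cells in every library. They held 24 to 3162 cells and 119638 to 21444853 UMIs per library. Tlr9 itself had 41, 48, 120 and 97 UMIs over all cells, so the transcript was still counted in TLR9-/- cells at a lower number of UMIs than in WT cells. Between 1.193% and 1.834% of a library's cell barcodes recurred in another library.

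The WT 1 library stood apart from the other 3 in interferon genes. The summed level of 30 interferon-induced genes was 1294, 1374, 3123 and 1023 UMIs per 1000000 over all cells. The sum follows most the genes with the most UMIs, Ifi27l2a, Bst2 and Isg15, with 49535, 17480 and 12175 UMIs in WT 1. WT 1 had the highest sum in 13 of 13 classes, at 1.19 to 3.39 times the mean of the other 3 libraries (median 2.06). The sum of the 10 class I genes was also highest in WT 1 in 12 of 13 classes, at 0.967 to 1.37 times that mean. Single genes differed in this, from B2m and H2-Q4, highest in WT 1 in 11 of 13 classes, to H2-T22, in 4 of 13. Several differences of the 10 genes between genotypes are therefore also given without this library. Those of the other gene lists are given only with it. The makeup of the libraries differed as well. B cells and B-cell precursors made up 29.5%, 24.5%, 47.6% and 47.5% of the cells. Markers of B lineage cells were also counted in other classes. Of 10 classes outside the B lineage, both WT libraries were above both TLR9-/- libraries in 9 for the summed markers of B-cell precursors, all but conventional dendritic cells, and in 5 for those of B cells. In monocytes, the 15 B-cell precursor markers, all with at least 1 UMI, summed to 531, 442, 938 and 827 UMIs per 1000000, and the 17 B cell markers, likewise all detected, to 270, 280, 453 and 336.

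**Figure D1:**
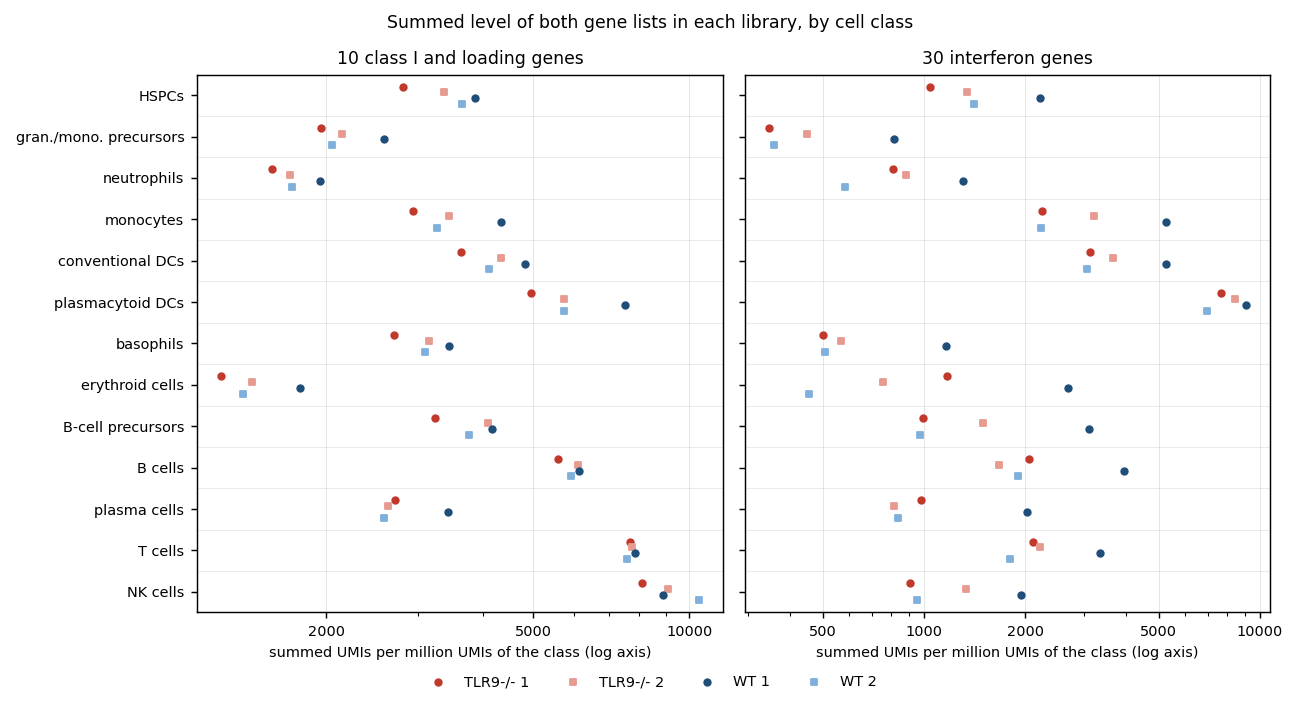
Summed UMIs per 1000000 UMIs of the class (x axis, logarithmic) for the 10 class I and loading genes and for 30 interferon genes, in each of 13 cell classes (y axis) and each of the 4 libraries (points). WT 1 (dark blue circles) lies to the right of the other libraries in 13 of 13 classes for interferon genes and in 12 of 13 for class I genes.

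The heavy chain genes share their upstream sequence to different degrees. The 250 bases before the start of each gene in RefSeq (GRCm38.p6) were searched on both strands for exact letters. TTTCACTT is a form of the core of the interferon response element, and GGGATTCCC is a form of a core of the NF-κB type. Their matches do not overlap each other. Each sequence is shown 5′ to 3′ on the strand of its gene with these letters in capitals, for H2-K1 as a classical gene and for H2-Q4, H2-Q6 and H2-Q7, on which the differences between the genotypes described further on turn. H2-K1 lies at chr17:34000348-34000597 on the minus strand, and H2-Q4 at chr17:35379367-35379616, H2-Q6 at chr17:35424600-35424849 and H2-Q7 at chr17:35438905-35439154 on the plus strand.
H2-K1: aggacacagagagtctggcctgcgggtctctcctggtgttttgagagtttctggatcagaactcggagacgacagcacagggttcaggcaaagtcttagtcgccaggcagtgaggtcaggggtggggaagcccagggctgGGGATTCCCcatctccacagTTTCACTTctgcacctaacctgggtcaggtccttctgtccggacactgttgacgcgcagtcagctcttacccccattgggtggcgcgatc
H2-Q4: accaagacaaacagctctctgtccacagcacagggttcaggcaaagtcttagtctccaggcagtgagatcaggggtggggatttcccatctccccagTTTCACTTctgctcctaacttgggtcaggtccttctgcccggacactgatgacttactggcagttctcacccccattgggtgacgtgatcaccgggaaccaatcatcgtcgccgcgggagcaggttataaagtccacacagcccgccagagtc
H2-Q6: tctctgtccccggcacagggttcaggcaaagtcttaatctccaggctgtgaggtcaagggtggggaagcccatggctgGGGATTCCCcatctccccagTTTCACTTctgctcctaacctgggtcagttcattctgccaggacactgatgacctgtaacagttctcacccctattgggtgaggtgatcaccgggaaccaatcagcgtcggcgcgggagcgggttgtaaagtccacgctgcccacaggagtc
H2-Q7: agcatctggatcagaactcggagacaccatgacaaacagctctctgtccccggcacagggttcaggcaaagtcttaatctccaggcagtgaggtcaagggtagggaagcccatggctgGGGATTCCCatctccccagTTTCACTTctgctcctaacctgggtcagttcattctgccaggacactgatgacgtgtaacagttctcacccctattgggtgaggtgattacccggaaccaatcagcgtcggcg

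TTTCACTT was found in the promoters of 7 of the 10 genes, all but H2-T23, B2m and Tap1, and in 389 of 27025 promoters of the same length (1.439%). GGGATTCCC was found in 4 of 10, H2-K1, H2-D1, H2-Q6 and H2-Q7, and in 84 of 27025 (0.3108%). The shorter CCAAT was present in 10 of 10 against 34.46% of all promoters, and TGACG, the core of the cyclic AMP element, in 8 of 10 against 17.86%. H2-Q6 and H2-Q7 were identical in 97.16% of 211 aligned columns, H2-Q4 and H2-Q7 in 83.19% of 226, and H2-K1 and H2-Q7 in 75.44% of 228. A match of letters is a description and not a binding site. Other forms of these elements were not searched, so a gene without a match can still hold another form.

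In GRCm38, 9 of the 10 genes lie on chromosome 17 and B2m lies on chromosome 2 from 122147686 to 122153083. H2-K1 (ENSMUSG00000061232) spans 33996017 to 34000347 and is followed by Tap1 at 34187553 to 34197225. H2-D1 lies at 35262730 to 35267499, H2-Q4 at 35379617 to 35385290, H2-Q6 (ENSMUSG00000073409) at 35424850 to 35430055 and H2-Q7 (ENSMUSG00000060550) at 35439155 to 35443773. H2-T23 lies at 36029773 to 36032855, H2-T22 at 36037128 to 36042747 and H2-M3 at 37270220 to 37274484. Because the genes are related, transcripts of GENCODE vM21 were cut into every stretch of 100 bases and the stretches were looked up in all other genes. No other gene held 89.22% of those of H2-Q6, 88.02% of those of H2-Q7, 91.14% of those of H2-T22 and 96.41% to 100% of those of the other 7. H2-Q6 and H2-Q7 had 166 stretches in common, so their counts are uncertain relative to each other, and they were also tested as a sum. H2-T22 had 261 in common with H2-T10 and H2-Q7 had 170 in common with H2-Q5. H2-T10 and H2-Q5 were not among the features of the matrices. The stretches cover whole transcripts while the libraries counted 5′ ends, so these shares do not describe the part that was read.

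Levels in the 13 classes are given as CPM, counts per 1000000 UMIs after TMM scaling over all classes and libraries, as mean ± SD of n = 4 libraries. They describe 1 gene across classes and do not compare genes. The classical genes were highest in lymphocytes outside the B-cell precursors and lowest in erythroid cells. H2-K1 was at 2662 ± 107 CPM in NK cells, 2336 ± 85.9 in T cells and 1521 ± 86.3 in B cells, and the 4 libraries of NK cells and of T cells did not overlap each other or the next class. It was at 318 ± 35.9 CPM in erythroid cells, below every other class. The mean in NK cells was 8.37 times as high, and the ratio within single libraries ran from 7.18 to 9.46. From B cells down to neutrophils (513 ± 75.2 CPM), each neighbor in the order overlapped the next, so their order is not resolved. H2-D1 had the same classes at its ends, with 1780 ± 107 CPM in NK cells and 350 ± 48.4 in erythroid cells, a 5.09-fold difference. Neutrophils and monocytes stood higher in the order for H2-D1, at 1031 ± 110 and 1073 ± 150 CPM, than for H2-K1, where monocytes were at 655 ± 127.

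The genes of the Q region were highest in lymphocytes. Plasmacytoid dendritic cells came next to them, at 83.9 ± 25.8 CPM for H2-Q4, 66.3 ± 55.6 for H2-Q6 and 226 ± 123 for H2-Q7, the last overlapping B cells. The lowest class of each of these genes was another without TMM scaling, neutrophils for H2-Q4 and H2-Q7 and erythroid cells for H2-Q6. H2-Q4 was at 164 ± 12.3 CPM in T cells, 134 ± 12.1 in B cells, 113 ± 20.8 in B-cell precursors and 113 ± 19.9 in NK cells, and T cells overlapped no other class. It fell to 20.2 ± 4.10 in precursors of granulocytes and monocytes, an 8.12-fold lower level. H2-Q6 was at 237 ± 19.4 CPM in NK cells, 227 ± 55.2 in B cells and 215 ± 47.4 in T cells, whose libraries overlapped. It was at 11.6 ± 6.08 CPM in monocytes, 12.4 ± 8.15 in erythroid cells and 14.3 ± 8.27 in precursors of granulocytes and monocytes. H2-Q7 was at 623 ± 129 CPM in NK cells and 585 ± 17.8 in T cells, apart from B cells at 263 ± 48.0, and at 26.7 ± 16.3 in monocytes. The mean in NK cells was 20.4 times that in monocytes for H2-Q6 and 23.3 times for H2-Q7, the largest ranges among the 10 genes. Within single libraries the ratio varied widely, from 13.3 to 51.2 for H2-Q6 and from 11.6 to 39.5 for H2-Q7. HSPCs, the hematopoietic stem and progenitor cells, were in between, at 42.4 ± 19.3 CPM for H2-Q6 and 107 ± 50.4 for H2-Q7.

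The remaining nonclassical genes had other leading classes. H2-T23 was highest in plasmacytoid dendritic cells at 634 ± 85.6 CPM, apart from conventional dendritic cells at 401 ± 8.97 and B cells at 375 ± 72.3, and lowest in precursors of granulocytes and monocytes at 96.2 ± 13.8, a 6.59-fold range. H2-M3 was at 78.3 ± 16.0 CPM in plasmacytoid dendritic cells and 71.5 ± 10.8 in B cells, which overlapped, and at 6.62 ± 2.86 in erythroid cells, an 11.8-fold range. H2-T22 was at 123 ± 23.8 CPM in T cells and 105 ± 22.4 in plasmacytoid dendritic cells, which overlapped, and at 19.8 ± 8.09 in erythroid cells, a 6.23-fold range. B2m varied least, from 1973 ± 293 CPM in plasma cells to 721 ± 173 in erythroid cells, a 2.74-fold range in which every neighbor overlapped the next. The plasma cell class was mixed. Without TMM scaling the highest and lowest classes of B2m were NK cells and neutrophils, and plasma cells came at rank 5. Tap1 ranged 3.46-fold, from 101 ± 14.2 CPM in plasmacytoid dendritic cells, followed by T cells at 97.2 ± 15.6 and B cells at 95.1 ± 5.23, to 29.2 ± 6.42 in erythroid cells. Every neighbor in the order of Tap1 overlapped the next as well.

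**Figure D2:**
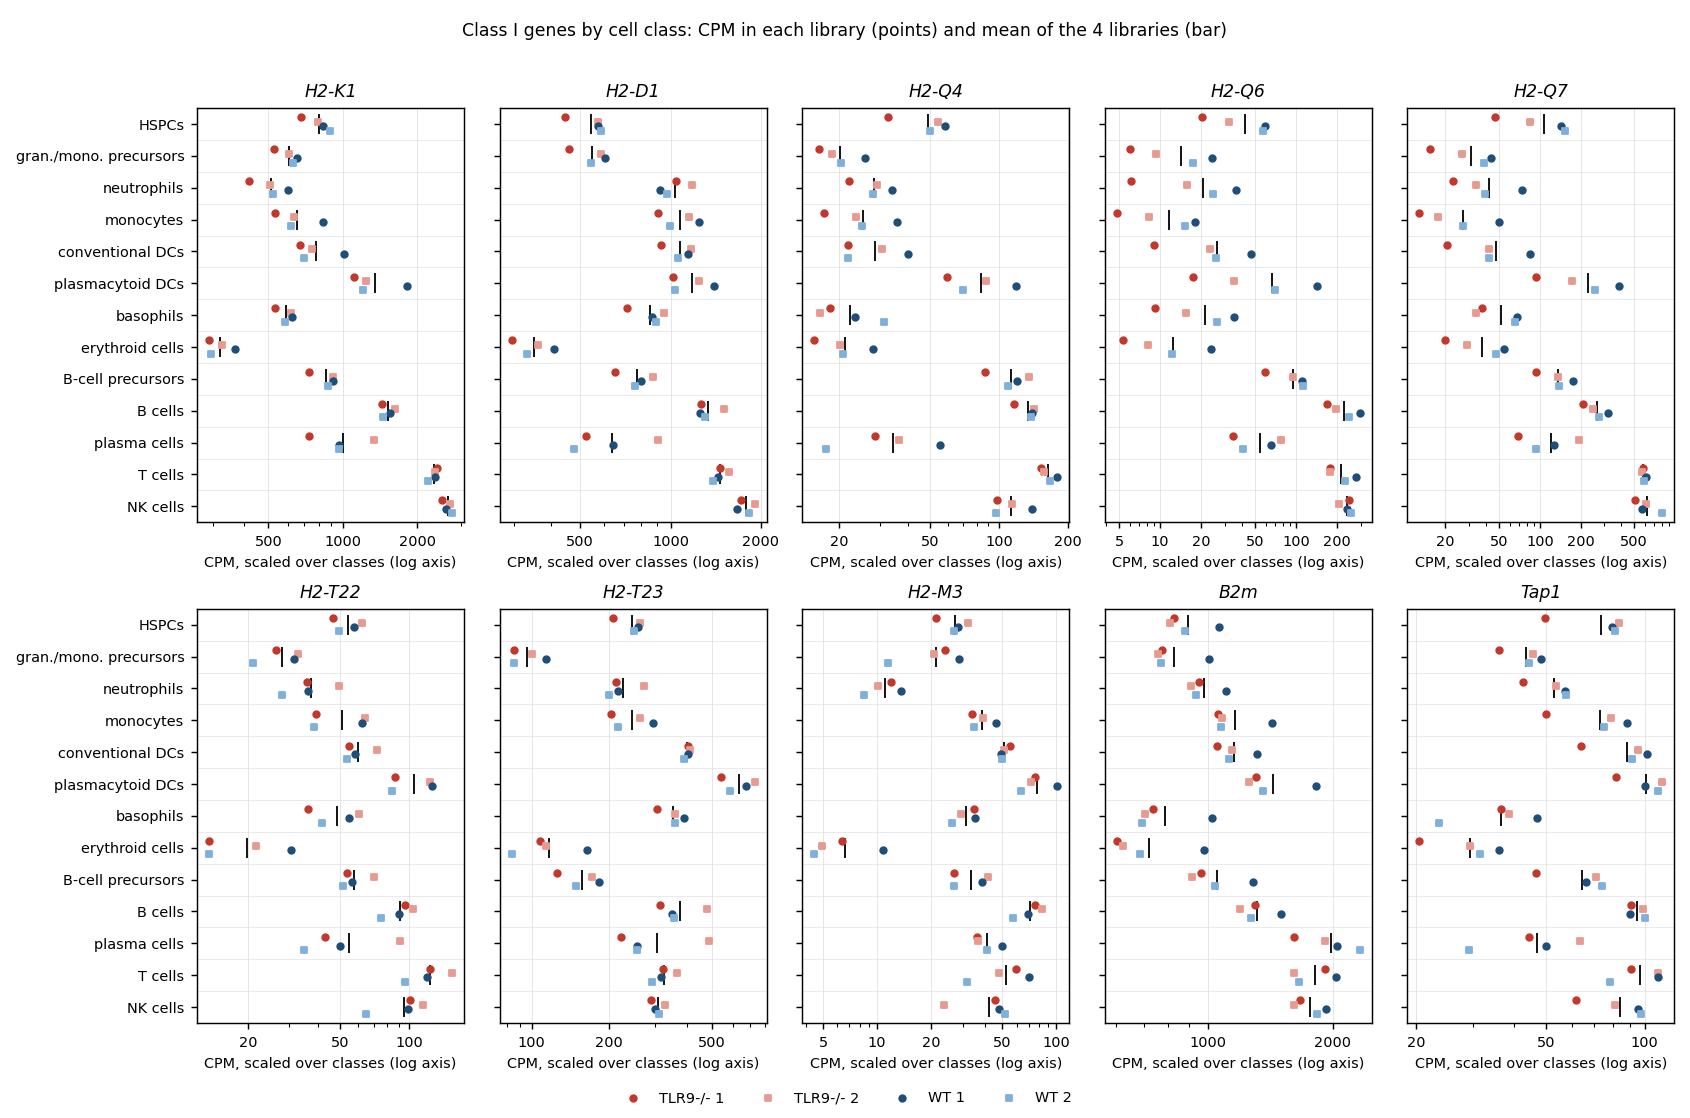
CPM of the 10 genes (x axes, logarithmic, with a scale of its own in each panel) in 13 cell classes (y axis), with 1 point per library and a black bar at the mean of the 4 libraries. H2-Q6 and H2-Q7 span the widest range, from 11.6 and 26.7 CPM in monocytes to 237 and 623 CPM in NK cells, and B2m the narrowest, from 721 to 1973 CPM.

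The pattern over classes was compared with that of 12104 genes by Pearson's r of log2(CPM + 10) over the 13 class means. These means share libraries and depth, and r is a description. The 10 genes themselves were left out of the orders below. Between H2-Q6 and H2-Q7 r was 0.958. Closest to H2-K1 was Tapbpl (0.967), a relative of the peptide editor tapasin, before Icam1, Gm45871, Pou6f1 and Idnk. Closest to H2-Q7 was Pim2 (0.959), a survival kinase of lymphocytes, before Pou6f1, Gimap6, Gm9856 and Gbp4. Closest to Tap1 was Ifi203 (0.954), before Lbh, Mndal, Ly9 and Lpp. Closest to H2-M3 was Zscan26 (0.913), before Gm14325, Galnt11, Mndal and Pde4dip. Closest to B2m was Mapre3 (0.939), before Abcc10, Fbxo4, Gm26514 and Zmat3, and closest to H2-T22 were Thap3, Icam1, Trim26, Gpr132 and Fbxo32, from 0.932 down to 0.912.

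Genotypes were compared by edgeR's quasi-likelihood test, two-sided, on UMIs summed per library, 2 libraries against 2, with Benjamini-Hochberg adjustment over all genes tested and a threshold of 0.05. A gene past it is called here. CPM in these comparisons are scaled within the class. Nothing tells whether mice of a genotype were littermates. A p value here sets the difference between genotypes against the spread between libraries of the same genotype. With 2 libraries per genotype, edgeR draws this spread toward that of other genes, so it is not the gene's own spread alone. The standard errors rest on it as well. That spread includes differences of library preparation and experiment, and no term for the experiment was in this fit. Over all cells of a library, H2-Q6 was at 28.6, 29.4, 83.6 and 61.4 CPM, H2-Q7 at 62.1, 64.3, 144.6 and 98.4, and H2-Q4 at 37.4, 40.0, 71.1 and 53.6. For each of these 3 genes both TLR9-/- libraries were below both WT libraries. The log2 fold changes of TLR9-/- over WT were −1.32 (standard error 0.19, adjusted p = 0.0698), −0.94 (0.21, 0.134) and −0.69 (0.18, 0.162). The other 7 genes had log2 fold changes between −0.29 for B2m and −0.00 for H2-T22. In all, 5 of 10 genes had both TLR9-/- libraries below both WT libraries, against 26.3% of 14194 genes. By edgeR 0 of 10 were called, against 0.31% of the genes, and 3 of 10 had an unadjusted p under 0.05, as had 2433 of the 14194. DESeq2 called H2-Q4, H2-Q6 and H2-Q7 and 849 genes in all, against 44 by edgeR. With the replicate number as a term of the edgeR fit, 3 of 10 and 1884 genes in all were called. The labels do not say that this number marks an experiment. Summed over a library, a level moves with the cells it holds. B cells and B-cell precursors gave 48.2%, 47.7%, 61.3% and 71.7% of the UMIs of H2-Q6 and 31.6%, 28.8%, 47.7% and 52.9% of those of H2-Q7, so the classes were compared separately.

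Genes whose libraries did not overlap between the genotypes were counted in each class, and the counts were not compared between classes by a test. The 13 classes come from the same 4 libraries, so results of a gene in several classes, here and below, are not independent of each other. In HSPCs, 5 of 10 genes had both TLR9-/- libraries below both WT libraries, against 20.4% of the genes tested. In precursors of granulocytes and monocytes it was 6 of 10 against 21.3%, in erythroid cells 5 of 10 against 17%, in monocytes 4 of 10 against 19.3%, in neutrophils 4 of 10 against 19.4%, in plasmacytoid dendritic cells 4 of 10 against 18.1%, and in basophils 4 of 10 against 17.3%. In conventional dendritic cells it was 3 of 10 against 17.7%, in T cells 3 of 10 against 17.9%, in NK cells 3 of 10 against 15.3%, in B cells 2 of 10 against 15.9%, in B-cell precursors 2 of 10 against 19.4%, and in plasma cells 2 of 10 against 12.7%. Both TLR9-/- libraries were above both WT libraries for 2 genes in B cells (H2-T22 and H2-M3, against 17.4% of the genes), 1 in T cells (H2-T22, 18.1%) and 1 in neutrophils (H2-D1, 18%). The median log2 fold change of the 10 genes ran from −0.45 in erythroid cells to 0.12 in plasma cells, with −0.25 in HSPCs, where the median of all genes was −0.02. Without WT 1 it was −0.09 in erythroid cells, −0.04 in monocytes (from −0.30) and −0.01 in plasmacytoid dendritic cells (from −0.27). It was 0.35 in plasma cells, −0.19 in HSPCs and −0.03 over all cells (from −0.25) without WT 1. The median also moved with other libraries. In HSPCs it was −0.03 without TLR9-/- 1, −0.37 without TLR9-/- 2 and −0.24 without WT 2. In B-cell precursors (−0.10 with all libraries) it was 0.09, −0.31 and −0.17 in these 3 fits.

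The test called 2 of the 10 genes, H2-Q6 and H2-Q7, both lower in TLR9-/- cells and both in HSPCs, where 0.689% of 10017 genes were called and 0.429% were called lower. In the other 12 classes edgeR called 0 of 10. The shares of all genes called there were 0.578% in precursors of granulocytes and monocytes, 0.661% in monocytes, 0.49% in neutrophils, 0.425% in plasmacytoid dendritic cells, 0.321% in conventional dendritic cells, 0.267% in basophils, 0.0663% in erythroid cells, 0.749% in B-cell precursors, 0.258% in B cells, 0.113% in plasma cells, 0.179% in T cells and 0.0871% in NK cells. Genes at an unadjusted p under 0.05 are given with the count over all genes tested in brackets. There were 3 of 10 in precursors of granulocytes and monocytes (1052 of 11065) and in monocytes (751 of 10131). There were 2 in neutrophils (735 of 9801), plasmacytoid (545 of 8697) and conventional dendritic cells (404 of 7480), basophils (466 of 6742) and erythroid cells (469 of 10552). There was 1 in B-cell precursors (1026 of 10553), B cells (503 of 9311) and T cells (423 of 6702), and 0 in plasma (71 of 3535) and NK cells (144 of 3446). DESeq2 called H2-Q7 in HSPCs (42 of 10017 genes in all) and monocytes (66 of 10131), and H2-Q6 in precursors of granulocytes and monocytes (87 of 11065). It called both in plasmacytoid dendritic cells (31 of 8697), and 0 of 10 in the other 9 classes.

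**Figure D3:**
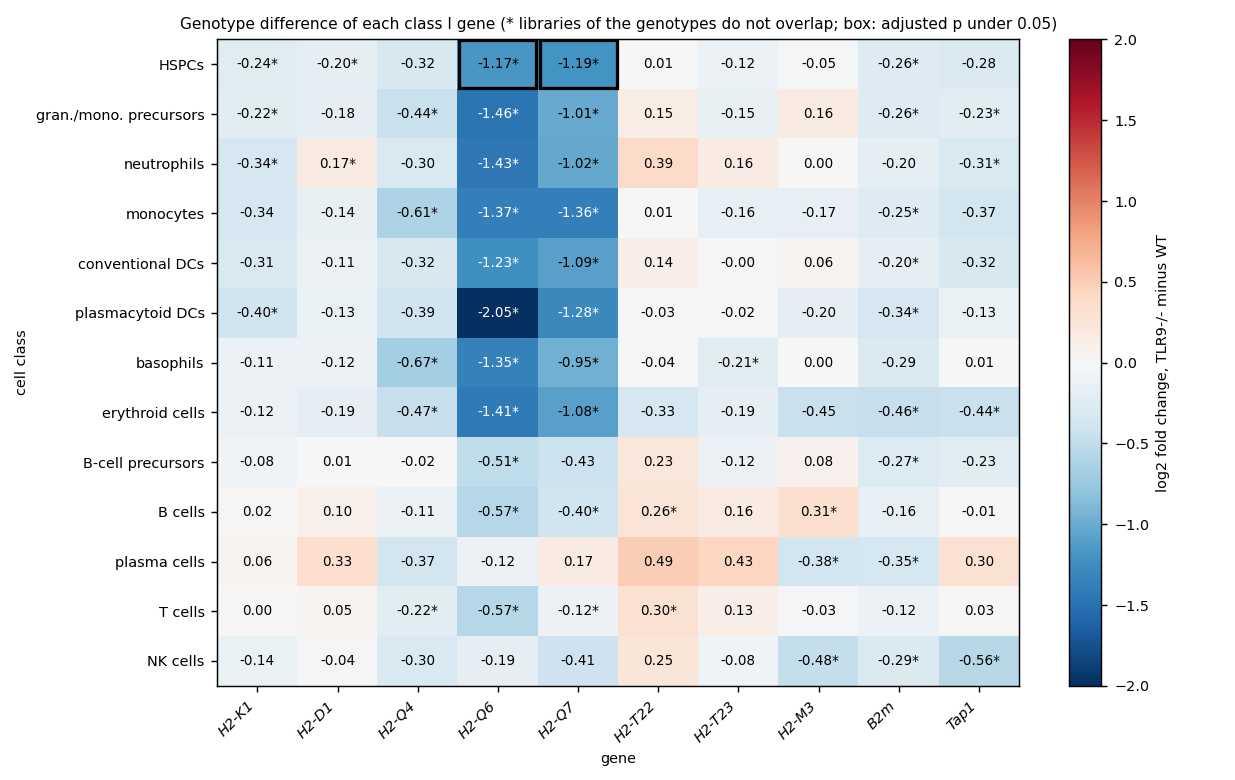
Log2 fold change, TLR9-/- minus WT, of each of the 10 genes (columns) in each of 13 classes (rows), from n = 2 libraries per genotype. Stars mark genes whose 2 genotypes do not overlap and boxes mark adjusted p under 0.05. The columns of H2-Q6 and H2-Q7 hold the lowest values, down to −2.05 and −1.36, and both boxes lie in the row of HSPCs.

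H2-Q6 had a negative log2 fold change in 13 of 13 classes, and both TLR9-/- libraries were below both WT libraries in 11, all but NK and plasma cells. The values ran from −2.05 in plasmacytoid dendritic cells to −0.12 in plasma cells, with a median of −1.23. Without WT 1 the median was −0.82 and 12 of 13 were negative. In plasmacytoid dendritic cells, producers of type I interferon that use Tlr9, the 4 libraries were at 19.9, 38.9, 163 and 81.1 CPM, from 29, 76, 273 and 82 UMIs. WT 1 was the highest and TLR9-/- 1 the lowest, and the fold change had an adjusted p of 0.371 by edgeR and 0.000488 by DESeq2. Without WT 1 it was −1.42. In precursors of granulocytes and monocytes H2-Q6 was at 5.84, 8.82, 24.3 and 17.3 CPM (−1.46, standard error 0.26, adjusted p = 0.0618), and without WT 1 at −1.21. In monocytes it was at 4.99, 8.52, 19.0 and 15.9 CPM (−1.37, 0.29, 0.0755), and without WT 1 at −1.22. The markers of B-cell precursors summed to 316, 303, 441 and 524 UMIs per 1000000 in precursors of granulocytes and monocytes and those of B cells to 158, 164, 273 and 226. The monocyte values rest on 36 to 62 UMIs per library. The B lineage markers were higher in both WT libraries in both classes, and their part in the differences was not tested. Among lymphocytes the values were smaller, at −0.57 in B cells (186, 216, 327 and 268 CPM), −0.57 in T cells (186, 190, 296 and 259 CPM) and −0.51 in B-cell precursors (68.5, 111, 127 and 127 CPM), with no overlap of the genotypes in any of the 3.

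H2-Q7 had a negative log2 fold change in 12 of 13 classes, and both TLR9-/- libraries were below both WT libraries in 10. The values ran from −1.36 in monocytes to 0.17 in plasma cells, with a median of −1.01, and of −0.67 without WT 1. In monocytes H2-Q7 was at 13.3, 18.0, 52.4 and 28.1 CPM (standard error 0.30, adjusted p = 0.144), and without WT 1 the fold change was −0.83. WT 1 stood well above WT 2 there. In erythroid cells H2-Q7 was at 18.0, 25.3, 49.7 and 42.4 CPM (−1.08, 0.24, 0.597), and without WT 1 at −0.96. In T cells, where the gene was high, it was at 607, 604, 655 and 658 CPM (−0.12, 0.20, 0.985). In NK cells, at 564, 714, 658 and 1052 CPM, the genotypes overlapped. The 2 genes were not counted in the same proportion in all classes. For every 100 UMIs of H2-Q7 there were 80.3 to 91.9 UMIs of H2-Q6 in the 4 libraries of B cells, 30.6 to 45.2 in T cells and 18.7 to 37.3 in plasmacytoid dendritic cells. In B cells the proportion was lower in both TLR9-/- libraries (81.8 and 80.3) than in both WT libraries (91.9 and 89.3). The same held in T cells (30.6 and 31.3 against 45.2 and 39.4) and plasmacytoid dendritic cells (18.7 and 20.1 against 37.3 and 27.5). It also held in precursors of granulocytes and monocytes (39.2 and 35.1 against 56.1 and 45.1) and in neutrophils (27.1 and 47.1 against 49.2 and 62.1). In the other classes the genotypes overlapped. The proportion was not tested.

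**Figure D4:**
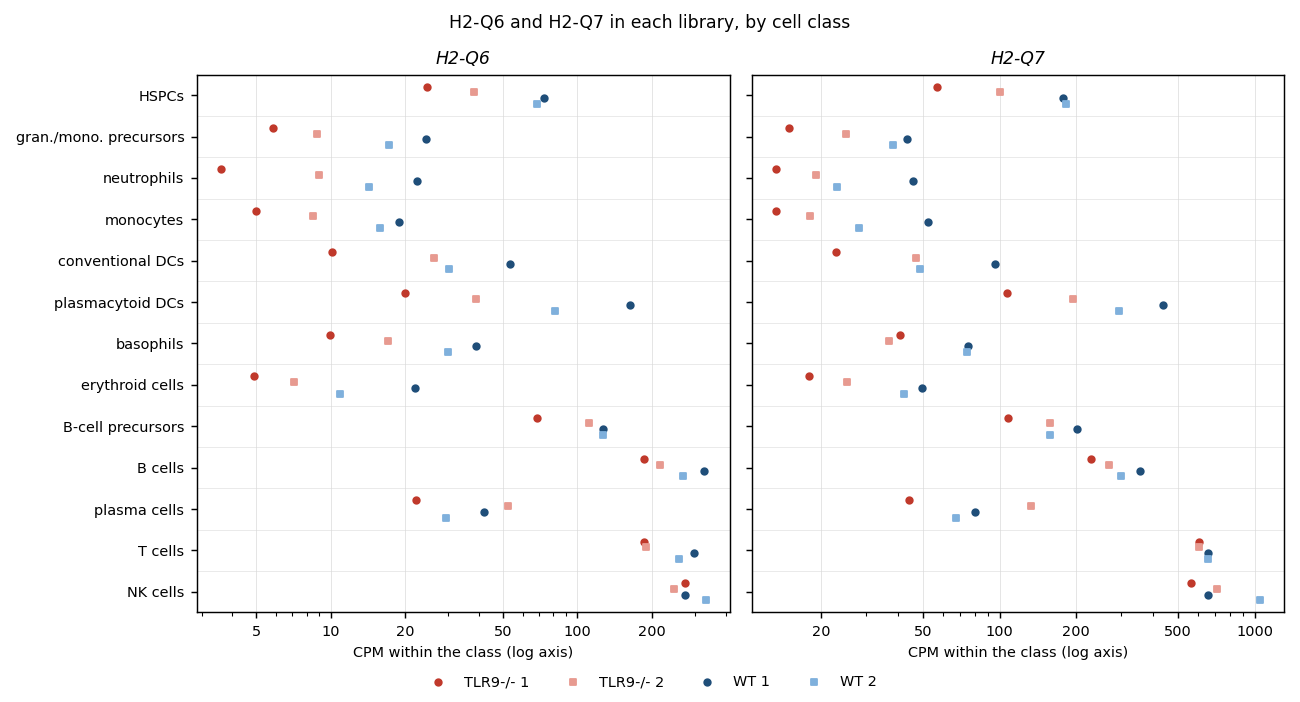
H2-Q6 and H2-Q7 in CPM scaled within the class (x axis, logarithmic) in 13 cell classes (y axis), with 1 point per library. Both TLR9-/- libraries (red) lie to the left of both WT libraries (blue) in 11 of 13 classes for H2-Q6 and 10 of 13 for H2-Q7.

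In HSPCs, H2-Q6 was at 24.6, 38.3, 73.5 and 68.4 CPM, from 90, 155, 89 and 111 UMIs in 557, 417, 259 and 267 cells. H2-Q7 was at 56.8, 100.5, 177.5 and 182.4 CPM, from 208, 407, 215 and 296 UMIs. The WT libraries were close to each other for both genes, and both TLR9-/- libraries lay below them, TLR9-/- 1 further than TLR9-/- 2. The log2 fold change was −1.17 for H2-Q6 (standard error 0.23, adjusted p = 0.0105) and −1.19 for H2-Q7 (0.23, 0.0162), and −1.19 for their summed UMIs (0.22, 0.0101). With 1 library left out, the fold changes of H2-Q6 and H2-Q7 were −1.11 and −1.21 without WT 1 and −1.20 and −1.16 without WT 2. Without TLR9-/- 1 they were −0.89 and −0.84, and without TLR9-/- 2 they were −1.52 and −1.66. Both calls held only when TLR9-/- 2 was the library left out. Such fits rest on a lone library of 1 genotype, and the number of all genes called moved as well. Of the other 8 genes, H2-K1 was at 820.5, 950.0, 1024 and 1063 CPM (−0.24, adjusted p = 0.730), H2-D1 at 538, 685, 704 and 699 (−0.20, 0.785) and B2m at 999, 962, 1304 and 1050 (−0.26, 0.700). These 3 did not overlap between genotypes and were not called. Tap1 was at 60.1, 99.7, 98.2 and 96.7 CPM and H2-Q4 at 39.6, 64.7, 71.8 and 59.8, and only TLR9-/- 1 lay apart.

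The makeup of the HSPC cluster differed between the genotypes. Markers of granulocyte and monocyte precursors, all 15 with UMIs, summed to 5767, 6539, 3894 and 3558 UMIs per 1000000, higher in both TLR9-/- libraries. Markers of B-cell precursors, all 15 with UMIs, summed to 646, 889, 1279 and 1049, and those of plasmacytoid dendritic cells, all 17 with UMIs, to 2825, 4042, 4843 and 3908, the former higher in both WT libraries. Markers of T cells summed to 123 to 196 with Trac at 0, and 10 of 16 NK cell markers had UMIs, summing to 187 to 262, with Ncr1 at 0. The part of these differences in the fold changes of H2-Q6 and H2-Q7 was not tested.

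The other genes had smaller differences. H2-Q4 was negative in 13 of 13 classes, with the genotypes apart in 5 and a median log2 fold change of −0.32, which was −0.12 without WT 1, where 9 of 13 were negative. Its lowest value was −0.67 in basophils, from 20, 20, 12 and 12 UMIs. B2m was also negative in 13 of 13 classes, with the genotypes apart in 9 and a median of −0.26, and WT 1 was its highest library in 11 of 13. Without WT 1 the median of B2m was −0.08. H2-K1 was negative in 10 of 13 with a median of −0.14, and its genotypes were apart in 4. Tap1 was negative in 10 of 13 with a median of −0.23 both with and without WT 1, and was lowest in NK cells, at 68.5, 95.2, 110 and 127 CPM (−0.56, adjusted p = 1.00). H2-D1, H2-T23 and H2-M3 had medians of −0.11, −0.08 and −0.03, which were 0.04, 0.09 and 0.23 without WT 1. H2-T22 had a median of 0.15, rising to 0.41 without WT 1, and TLR9-/- 2 was its highest library in 9 of 13 classes. For none of these 8 genes was a difference called in any class by edgeR and, apart from 2 tests of H2-Q4, in precursors of granulocytes and monocytes and in monocytes, every unadjusted p was above 0.05.

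Whether the fold change differed between classes was tested as an interaction in 1 fit over all classes, with B cells as the reference. None of the 10 genes was called by edgeR in any of 4 contrasts. The shares of 12104 genes called were 0.033% for B-cell precursors, 0.00826% for T cells, 0.0991% for monocytes and 0.0413% for neutrophils. The lowest p values belonged to the Q region. The fold change of H2-Q7 in monocytes was lower than in B cells by −0.93 on the log2 scale (standard error 0.37, unadjusted p = 0.0175, adjusted p = 0.798 by edgeR). For H2-Q6 the difference was −0.86 in neutrophils (0.35, 0.0180, 0.848) and −0.80 in monocytes (0.36, 0.0322, 0.930). The remaining tests of the 10 genes had an unadjusted p above 0.05. A difference between B cells and the 4 classes therefore did not pass the test for any of the 10 genes. HSPCs, where H2-Q6 and H2-Q7 were called, were not among these 4 classes. Whether the fold changes in HSPCs differ from those in other classes was not tested.

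**Figure D5:**
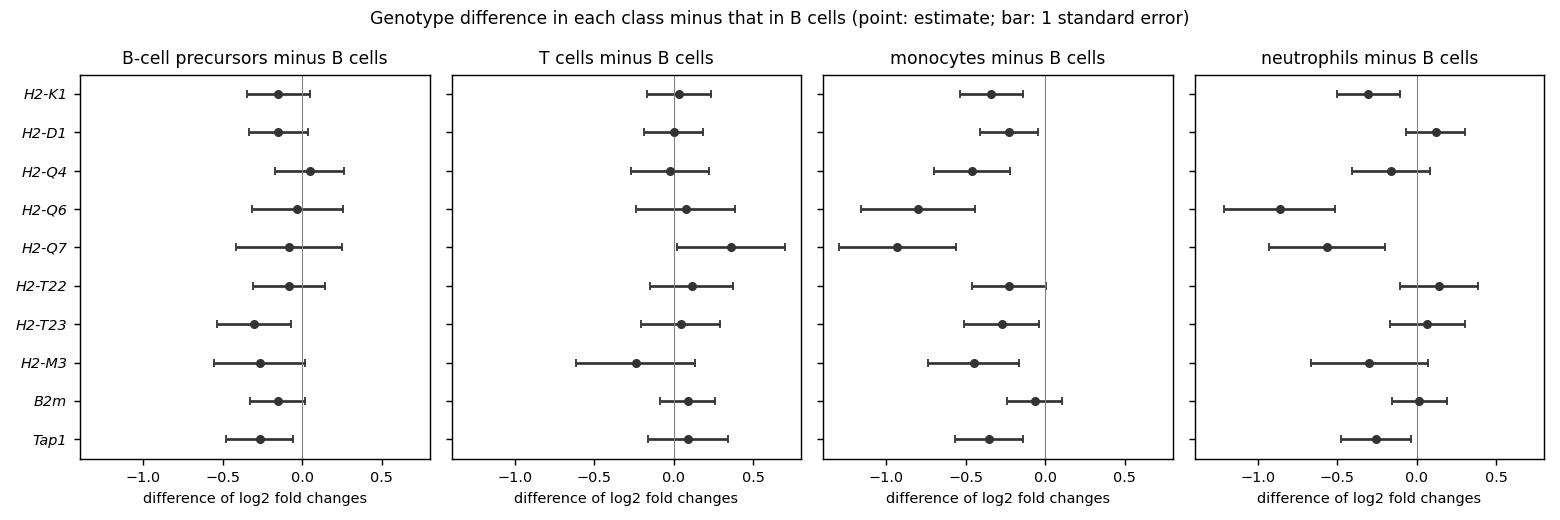
Difference of the log2 fold change (TLR9-/- minus WT) in each of 4 classes from that in B cells (x axis) for the 10 genes (y axis), with the estimate as a point and 1 standard error as a bar. H2-Q7 lies furthest from 0 in monocytes, at −0.93, and H2-Q6 in neutrophils, at −0.86, and no difference passed the threshold.

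A list of 13 genes covered the supply and loading of peptides, that is the second TAP subunit, tapasin and its relative, calreticulin, calnexin, the disulfide isomerase Pdia3, the trimming peptidase Erap1, the immunoproteasome and its activator, and the class I transactivator Nlrc5. None of them was called by edgeR in all cells or in any class. In all cells 3 of 13 had an unadjusted p under 0.05, as had 2433 of 14194 genes. Pdia3 was at 235, 254, 154 and 141 CPM (0.73, standard error 0.14, adjusted p = 0.107) and Calr at 303, 349, 191 and 229 (0.64, 0.16, 0.156), both higher in both TLR9-/- libraries. Pdia3 had a positive fold change in 13 of 13 classes, up to 0.68, and its genotypes were apart in 11. Calr, also a marker used to name precursors of granulocytes and monocytes, was positive in 9 of 13, with a median log2 fold change of 0.12. Both TLR9-/- libraries were above both WT libraries for Calr in 3 classes and below in 2. Nlrc5, which drives transcription of class I genes, was at 9.72, 8.04, 16.7 and 10.98 CPM (−0.64, 0.24, 0.275). It was negative in 10 of the 11 classes in which it was tested and its genotypes were apart in 7. In B cells Nlrc5 was at 11.3, 10.3, 26.3 and 19.5 CPM (−1.08, 0.31, 0.387) and in conventional dendritic cells at 12.7, 13.1, 34.0 and 30.1 (−1.32, 0.37, 0.420).

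The 30 interferon genes were all tested in all cells, and 6 to 27 of them in single classes. Only Oasl2, which encodes a relative of the oligoadenylate synthetases, was called, and only in neutrophils, where 26 of the 30 were tested. It was at 2.28, 1.12, 21.4 and 15.6 CPM there, from 12, 10, 61 and 120 UMIs (−3.49, standard error 0.36, adjusted p = 0.000980), and WT 2, without the high interferon sum of WT 1, was also well above both TLR9-/- libraries. Oasl2 was negative in 8 of the 8 classes that tested it, with the genotypes apart in 7. The list as a whole was not lower in TLR9-/- neutrophils, with a median log2 fold change of 0.03, and of its 26 genes 3 had both TLR9-/- libraries above both WT libraries, against 18% of all genes, and 1 had both below, against 19.4%. In HSPCs, 8 of 25 tested interferon genes had an unadjusted p under 0.05, as had 948 of 10017 genes, and edgeR called 0. Oasl2 was at 5.46, 3.46, 14.9 and 11.7 CPM (−1.56, adjusted p = 0.10), Rsad2 at 1.64, 1.23, 4.95 and 7.39 (−2.11, 0.224), and Isg15 at 33.6, 35.6, 60.3 and 50.5 (−0.67, 0.253). Both WT libraries were above both TLR9-/- libraries for these 3 genes, and for 10 of the 25, against 20.4% of all genes. The median of the 25 was −0.32 against −0.02 for all genes of the class.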

How the data were processed

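The 4 libraries, 2 TLR9-/- and 2 WT, were deposited as whole-number counts of unique molecular identifiers (UMIs) per gene and cell, which the authors made with Cell Ranger and STAR on mm10. Seurat 2.3.4 is named in the submitters' processing notes for later steps. Cells with 200 to 10000 genes and at most 10% mitochondrial UMIs were kept. The gene limits are the study's, while its methods print a far lower percentage as the mitochondrial limit, which was taken to be a fraction. Cells were clustered with scanpy 1.11.5 (python 3.11.15) on 2000 variable genes and 30 components at resolution 1, and clusters were named from marker lists, with ties settled after the clusters were seen. The plasma cell class was mixed, with a median of 1238 to 17696 UMIs per cell. At resolution 2 the cluster named plasma cells held 50, 21, 32 and 21 cells. Another cluster there, of 173, 4, 125 and 2 cells, was named precursors of granulocytes and monocytes. Its leading genes were immunoglobulin genes and Jchain together with Elane, Ctsg and Prtn3. Marked doublets (309, 420, 401 and 633 cells) were kept. UMIs were summed per class and library and tested with edgeR 4.0.16 (R 4.3.3), with TMM scaling, a minimum count of 10 in its expression filter and no covariates. DESeq2 1.42.0 was an alternative. The scripts were tested on simulated counts. Every one of the 10 genes was named, and of each other list up to 3 genes with the lowest p in a comparison and any gene called. A few further genes of the lists were named for their UMIs or as the partner chain of a named gene. The genes, lists and tests were chosen with earlier results of these data known. Levels after thinning cells to equal depth were not computed. UMI counts of 119638 or more per class and library limit low genes.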

Additional observations from a re-analysis of the deposited data

Results flagged for a closer look

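For H2-D1 every TLR9-/- library was above every WT library in neutrophils (log2 fold change 0.17, with 18% of all genes above) and below in HSPCs (−0.20, with 20.4% below). With CPM scaled over all classes, H2-D1 in HSPCs was at 574.7 in TLR9-/- 2 and 572.1 in WT 1, so the genotypes overlapped. For H2-M3 every TLR9-/- library was above every WT library in B cells (0.31, with 17.4% of all genes above). It was below in NK cells (−0.48, with 15.3% below) and plasma cells (−0.38, with 12.7% below). NK and plasma cells held only 59 and 24 cells in WT 2. These opposite directions were picked out because the libraries did not overlap, and the differences between these classes were not tested. None of the 5 fold changes was called by edgeR.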

How the results depend on the processing

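The 2 calls in HSPCs (69 of 10017 genes in all) became 1 with DESeq2 (42 of 10017). They became 1 with clusters at resolution 2 (51 of 9331) and with the listed genes allowed in clustering (47 of 9531). By construction there was also 1 with H2-Q6 and H2-Q7 summed (68 of 10016), an alternative chosen after seeing the data. In all cells, 0 calls (44 of 14194 genes in all) became 2 without the low-count filter (521 of 20307) and 3 with DESeq2 (849 of 14194). Without the filter 2 were called in erythroid cells (177 of 16347 genes in all), in precursors of granulocytes and monocytes (286 of 16496), in monocytes (144 of 15301), in neutrophils (188 of 15544) and in plasmacytoid dendritic cells (129 of 14478). DESeq2 called 1, 1 and 2 in precursors of granulocytes and monocytes, in monocytes and in plasmacytoid dendritic cells, where it called 87, 66 and 31 genes in all. With 1 library left out, a genotype rests on a lone library, and counts of calls from such fits are not given here. The causes were not tested. A lone library was assumed to vary like the other genotype's.

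The study ran 2 experiments with 1 mouse of either genotype in each, and the labels share replicate numbers without saying that a number marks an experiment. Deviations of same-numbered libraries correlated across genes at 0.14 to 0.44. With the number as a replicate block, 3 genes were called in all cells (1884 of 14194 genes in all). There were 2 in precursors of granulocytes and monocytes (336 of 11065), plasmacytoid dendritic cells (189 of 8697) and, as before, HSPCs (216 of 10017). There was 1 in B cells (289 of 9311), B-cell precursors (389 of 10553), erythroid cells (286 of 10552) and monocytes (256 of 10131). Over all genes, 44 calls in all cells ranged from 37 to 1884 over the alternatives with all 4 libraries, and 69 in HSPCs from 42 to 216.

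With levels per 1000000 UMIs and no TMM, the highest class was above the lowest 11.1-fold for H2-K1, 6.72 for H2-D1, 10.6 for H2-Q4, 7.68 for H2-T23, 15.1 for H2-M3, 3.61 for B2m and 4.41 for Tap1. Signs turned only for uncalled log2 fold changes. In all cells H2-T22 was 0.00687 with RLE size factors, 0.0131 without the filter, 0.00713 with DESeq2, 0.0248 with the block and 0.0047 without doublets. With 1 library left out, it ran from −0.28 to 0.35 there, H2-D1 from −0.22 to 0.0339, H2-T23 from −0.36 to 0.16 and H2-M3 from −0.45 to 0.39. In HSPCs H2-M3 was 0.0084 without doublets, and with 1 library left out it ran from −0.35 to 0.20, H2-T22 from −0.20 to 0.19, H2-T23 from −0.29 to 0.0295 and Tap1 from −0.69 to 0.0322. In plasma cells H2-Q6 was 0.0459 at resolution 2 and 0.11 with listed genes allowed, and H2-Q7 was −0.0742 with the block. With 1 library left out, H2-Q6 ran from −0.76 to 0.50 and H2-Q7 from −0.78 to 0.83.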

Other observations

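Of 17 other class I heavy chains listed, 13 were in the files. Cd1d1 had 912, 860, 722 and 715 UMIs, while H2-T3, H2-M1, H2-M9, H2-M10.1 and H2-M11 had no UMI in any library. H2-Q10, known as a secreted heavy chain of the liver, had 245, 303, 69 and 300 UMIs in neutrophils, which were 78.8%, 85.8%, 71.1% and 90.1% of its UMIs in the library. At 46.5, 34.1, 24.2 and 39.1 CPM it did not separate the genotypes (log2 fold change 0.31, adjusted p = 0.861 by edgeR), and it shares 270 stretches of 100 bases with H2-Q7. H2-Q1 had 2, 5, 8 and 18 UMIs over all cells (−2.48, adjusted p = 0.155). None of the list was called by edgeR in all cells or in any class, with 0 to 1 genes at an unadjusted p under 0.05.

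On the side of the receptors, 14 genes of CD8 and class I receptors were tested in all cells and 1 to 9 of them in single classes. None of those tested was called by edgeR, with 0 to 2 at an unadjusted p under 0.05. Cd8b1, a chain of the CD8 co-receptor, was at 8.19, 5.86, 4.64 and 2.40 CPM in all cells (1.00, adjusted p = 0.268) and at 237, 247, 107 and 211 CPM in T cells (0.64, adjusted p = 0.758). T cells made up 5.38%, 3.52%, 2.09% and 1.39% of the cells. Cd8a, the other chain, was at 117, 108, 82.4 and 133 CPM in T cells (0.10). Its genotypes overlapped there and in all cells (0.25). Lilrb4a, an inhibitory receptor of myeloid cells, was at 27.1, 20.3, 14.0 and 12.8 CPM in neutrophils (0.83, adjusted p = 0.283), higher in both TLR9-/- libraries.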
